A study of Mus with 6 samples.

Results

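The tumor necrosis factor (TNF) superfamily pairs trimeric ligands with receptors that carry cysteine-rich repeats, and T cells use both sides of it. Costimulatory receptors such as OX40, CD137, GITR and CD27 bind TRAF adaptors and sustain the division and survival of activated T cells. Receptors with a death domain, such as Fas and TNFR1, can instead assemble a complex that activates caspase-8. Activated helper T cells also display ligands of the family, which act on other immune cells, stroma and bone.

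A set of 10 superfamily genes was selected by name from the 10995 protein-coding genes listed, and all 10 were found. These were the receptor genes Tnfrsf4, Tnfrsf9, Tnfrsf18, Cd27, Tnfrsf1a, Tnfrsf1b and Fas and the ligand genes Tnfsf8, Tnfsf11 and Tnfsf14. They were measured in wild-type splenic CD4+ T cells, isolated as naive cells and activated for 3 days. The stimuli were anti-CD3 at 5 μg/mL, anti-CD28 at 2 μg/mL and IL-2 at 100 U/mL, and the wild-type mice of the study were C57BL/6. All cells thus received the same activating stimuli, and the groups differed in the goat antibody added, which was anti–VEGF-B or normal IgG, each at 1 μg/mL. The age and sex of the mice were not given for these samples. RNA-Seq libraries numbered 3 per group, and nothing in the labels says whether they came from separate mice, so that p values measure the spread between libraries.

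Values are FPKM (fragments per kilobase of transcript, scaled to the reads of each library), which allow levels to be compared between genes. Differences are anti–VEGF-B minus IgG on the log2(FPKM + 1) scale, where the added 1 FPKM shrinks differences of low values. They were tested with limma in the 8816 genes whose mean over the 6 libraries reached 1 FPKM. Genes with a Benjamini-Hochberg adjusted p under 0.05, taken over all genes tested, are described as called. Of the markers for the labelled cells, Cd4 lay between 64.0 and 74.6 FPKM. Among 8 T cell markers, Cd3e (log2 difference -0.51, adjusted p = 0.0197 from limma) and Cd5 (-0.38, 0.0343) were called lower with anti–VEGF-B. The other 6, Cd4 among them, were not called. After median centring 0 of the 8 were called lower and 2 higher. Over all 8816 genes tested, 807 were called lower and 1365 higher after median centring, against 2099 and 429 as deposited. Cd3e and Cd5 also lost their calls in some fits that left out 1 library (limma adjusted p up to 0.0711 and 0.117). Of the CD8 markers, Cd8a was at most 0.182 FPKM, while Cd8b1 was found in every library at 2.27 to 4.51 FPKM. Summed myeloid markers (5 of 8 listed) were 29.5 FPKM in IgG replicate 3, mostly from Lyz2 at 16.4 FPKM, against 11.9 to 13.8 FPKM in the other libraries. Of the B cell, NK cell and erythroid markers, 1 of 5, 1 of 4 and 0 of 3 were listed, at sums of at most 1.34 FPKM. Of 2 regulatory T cell markers, Ikzf2 was called higher with anti–VEGF-B (log2 difference 0.42, adjusted p = 0.0231 from limma). Its call was lost without anti–VEGF-B replicates 1 and 3 and without IgG replicate 2. Foxp3, under the filter, was lower, at 0.791 ± 0.0449 FPKM with anti–VEGF-B and 1.06 ± 0.187 FPKM with IgG, and the groups were apart. IgG replicate 2 had the highest value of all 6 libraries for 9 of the 10 members. Of 4 activation markers, Il2ra (log2 difference -0.97, adjusted p = 0.00665 from limma) and Mki67 (-1.48, 0.00279) were called lower with anti–VEGF-B, and Cd44 (-0.18, 0.168) and Tfrc (0.098, 0.324) were not called. Of the markers of naive T cells reported here, Ccr7 (-0.93, adjusted p = 0.00714 from limma), Tcf7 (-0.44, 0.0106) and Il7r (-0.32, 0.0460) were called lower as well. Il7r was called in only 1 of the 6 fits that left out 1 library, that without IgG replicate 1, and under no other scaling, and Tcf7 was not called after median centring. The activation markers summed to between 196 and 206 FPKM with anti–VEGF-B and between 232 and 289.9 FPKM with IgG. Their part in the results was not tested. In bulk RNA, fewer cells of a type and less RNA per cell cannot be told apart.

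The 10 members had differences between -0.37 and -0.01, with a median of -0.28 against -0.15 over all genes tested. Among them, 2 were called lower (Tnfrsf9 and Tnfsf14) and 0 higher, while 23.8% of all genes tested were called lower and 4.87% higher. For 5 members the 3 anti–VEGF-B values were all below the 3 IgG values, and for 0 they were all above, where 38.5% of all genes were apart in the lower and 10.5% in the higher direction. The share of members called was thus close to that of genes in general. At an unadjusted p under 0.05 the limma counts were 7 lower and 0 higher, where 35.2% of all genes tested were lower and 7.96% higher at that threshold. Both calls were lost without IgG replicate 2, without anti–VEGF-B replicate 2 and without anti–VEGF-B replicate 3, each of which left 0 members called by limma (3, 3 and 4 members at an unadjusted p under 0.05). In those fits 1359, 1716 and 859 of the 8816 genes tested were called (3059, 3421 and 2894 at an unadjusted p under 0.05), against 2528 with all libraries. Without IgG replicate 3 the 1 call was Tnfrsf1a, and without anti–VEGF-B replicate 1 the 2 calls were Fas and Tnfsf14. Of all genes tested, 1853 and 1679 were called there. Median centring, scaling to Actb and limma without its moderated variance also left 0 members called (1, 4 and 0 at an unadjusted p under 0.05, the 1 being Tnfrsf1b, which was higher). Over all genes tested these last fits called 2172, 1674 and 12 (3528, 3127 and 3208 at an unadjusted p under 0.05).

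The order of the members by level was nearly the same under both antibodies. Tnfrsf9, Tnfrsf4 and Tnfrsf18 led it and together made up between 71.7% and 72.9% of the summed FPKM of the members in each library. That sum was 614, 728 and 620.3 FPKM with IgG and 573, 539.8 and 531 FPKM with anti–VEGF-B. In IgG cells the 3-library ranges of Tnfrsf1b and Fas overlapped, as did those of Tnfsf8 and Cd27, and all other neighbors in the order were apart. With anti–VEGF-B, Cd27 stood above Tnfsf8 in the mean, again with overlapping ranges. Tnfrsf1a was the least abundant member in every library.

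**Figure D1:**
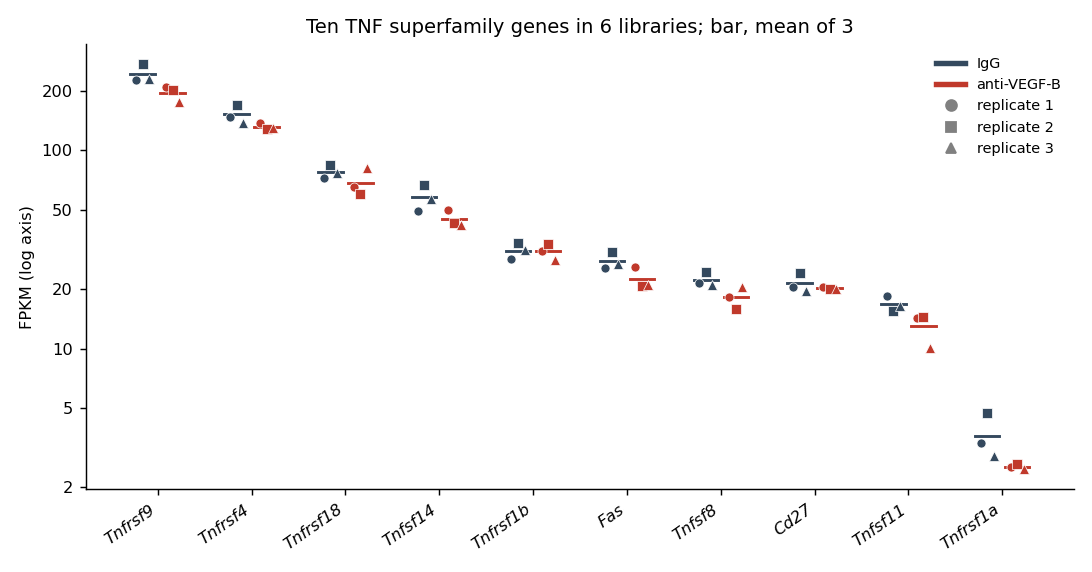
FPKM (log axis) of the 10 members in each library, with IgG in dark blue and anti–VEGF-B in red, a marker shape per replicate number and a bar at the mean of 3. The levels span from 2.47 FPKM (Tnfrsf1a) to 272 FPKM (Tnfrsf9), and IgG replicate 2 (square) is the highest library for 9 members.

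Among the costimulatory receptors, Tnfrsf9, which encodes CD137, was the most abundant. It measured 209, 201 and 176 FPKM with anti–VEGF-B and 226, 272 and 230.4 FPKM with IgG. Every anti–VEGF-B library was under every IgG library, and IgG replicate 2 stood above the other IgG libraries. The means were 195 ± 17.4 and 243 ± 25.4 FPKM (SD, n = 3 each), at a ratio of 0.803, and the log2 difference was -0.31 (standard error 0.0981, adjusted p = 0.0412 from limma). Against the median of all genes this came to -0.16. Leaving out anti–VEGF-B replicates 1, 2 and 3 in turn gave a limma adjusted p of 0.0545, 0.0695 and 0.152, and leaving out IgG replicates 2 and 3 gave 0.116 and 0.0625. It was 0.395 after median centring and 0.121 when scaled to Actb, against 0.0255 to 0.395 over all alternatives.

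Tnfrsf4 encodes OX40, which appears on T cells after activation. It measured 137, 128 and 129.9 FPKM with anti–VEGF-B and 148, 170.4 and 138 FPKM with IgG. The groups did not overlap, but anti–VEGF-B replicate 1 and IgG replicate 3 lay within 1 FPKM of each other. The means were 132 ± 4.69 and 152 ± 16.7 FPKM (SD, n = 3 each), and the log2 difference of -0.20 (95% interval -0.40 to -0.0022) was not called (adjusted p = 0.112 from limma). The difference was -0.26 after quantile normalization, -0.13 when scaled to Actb and -0.00015 after median centring, so that its size rested on the scaling between libraries.

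Tnfrsf18, the gene of GITR, is close to Tnfrsf4 on the chromosome and in function. It measured 65.0, 60.05 and 81.5 FPKM with anti–VEGF-B and 72.4, 84.7 and 77.4 FPKM with IgG. The groups overlapped, since anti–VEGF-B replicate 3 was above IgG replicates 1 and 3. The log2 difference was -0.19 (95% interval -0.45 to 0.069, adjusted p = 0.229 from limma). It was -0.22 after quantile normalization, -0.12 when scaled to Actb and 0.012 after median centring. Within a library, Tnfrsf4 was 1.95 ± 0.305 times as abundant as Tnfrsf18 with anti–VEGF-B (SD, n = 3) and 1.95 ± 0.143 times with IgG (SD, n = 3).

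Cd27 encodes a receptor that naive T cells already carry. It measured 20.4, 20.1 and 20.1 FPKM with anti–VEGF-B and 20.6, 24.0 and 19.6 FPKM with IgG, and the groups overlapped. The anti–VEGF-B libraries were nearly equal, with a coefficient of variation of 0.867% against 10.8% with IgG. Its log2 difference was -0.077 (95% interval -0.28 to 0.12, adjusted p = 0.530 from limma), and it was above 0 after quantile normalization (0.0091), after median centring (0.12) and without IgG replicate 2 (0.0052).

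The receptors for TNF itself differed in level and in difference. Tnfrsf1a, the gene of the death domain receptor TNFR1, measured 2.54, 2.61 and 2.47 FPKM with anti–VEGF-B and 3.33, 4.72 and 2.87 FPKM with IgG. The groups were apart, and IgG replicate 2 was the highest by a wide margin. The means were 2.54 ± 0.0709 and 3.64 ± 0.965 FPKM (SD, n = 3 each), at a ratio of 0.697, and the log2 difference of -0.37 was the largest in size among the members as deposited (standard error 0.143, 95% interval -0.70 to -0.048, adjusted p = 0.0785 from limma). It passed in 1 fit, without IgG replicate 3 (-0.49, limma adjusted p = 0.0451, and between 0.0451 and 0.401 over the alternatives). That library had the lowest IgG value of Tnfrsf1a and more myeloid marker RNA, and the part of either in this call was not tested.

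Tnfrsf1b encodes TNFR2, which lacks a death domain and signals through TRAF2. It measured 31.2, 33.8 and 27.9 FPKM with anti–VEGF-B and 28.2, 34.1 and 31.3 FPKM with IgG, so that the groups lay over each other. The means were 30.9 ± 2.96 and 31.2 ± 2.98 FPKM (SD, n = 3 each). The log2 difference was -0.012 (95% interval -0.23 to 0.21, adjusted p = 0.933 from limma) and above 0 under each other scaling, at 0.048 with quantile normalized values, 0.19 with median centred ones and 0.054 when scaled to Actb. Its interval was narrow enough to leave out a change of the size seen for Tnfrsf8 or Tnf.

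The ratio of Tnfrsf1b to Tnfrsf1a within a library does not depend on the scaling between libraries. It was 12.3, 12.9 and 11.3 with anti–VEGF-B and 8.47, 7.23 and 10.9 with IgG. Each anti–VEGF-B library was above each IgG library, with means of 12.2 ± 0.833 and 8.86 ± 1.86 (SD, n = 3 each). The log2 ratio differed by 0.48, with p = 0.1 from a two-sided exact permutation test, the smallest that 3 against 3 libraries allow. With 1 FPKM added to each gene, as for the other differences, it was 0.36, anti–VEGF-B replicate 3 lay just under IgG replicate 3, and p was 0.2 in the same exact test.

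Fas, a death receptor that can remove activated T cells, measured 25.8, 20.7 and 21.0 FPKM with anti–VEGF-B and 25.4, 30.7 and 26.7 FPKM with IgG. The groups overlapped only through anti–VEGF-B replicate 1, which was just above IgG replicate 1. The means were 22.5 ± 2.87 and 27.6 ± 2.76 FPKM (SD, n = 3 each), and the log2 difference of -0.28 (standard error 0.107, 95% interval -0.53 to -0.043) was not called (adjusted p = 0.0733 from limma). Leaving out anti–VEGF-B replicate 1 gave -0.38 (limma adjusted p = 0.0386, and between 0.0386 and 0.539 over the alternatives). Fasl, its ligand gene, was under the filter, at 0.611 ± 0.187 FPKM with anti–VEGF-B and 0.621 ± 0.297 FPKM with IgG.

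**Figure D2:**
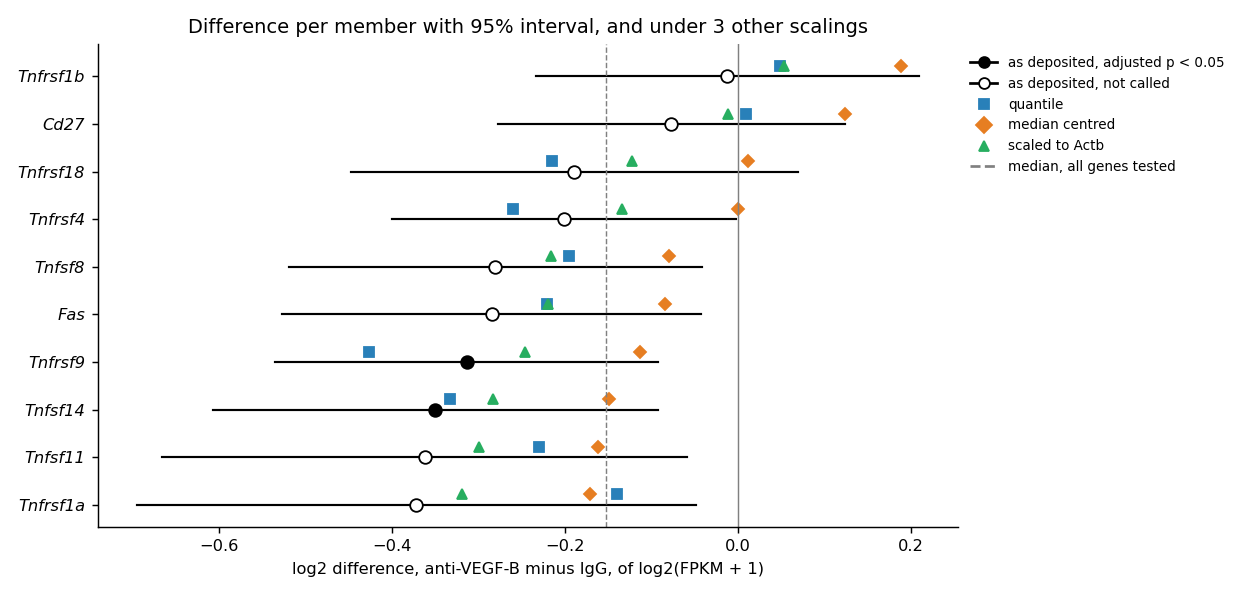
Log2 difference of each member (anti–VEGF-B minus IgG, of log2(FPKM + 1)) with its 95% interval as deposited, and the same difference after quantile normalization, median centring and scaling to Actb. All 10 circles lie between -0.37 and -0.01, and median centring moves each to the right, taking Tnfrsf1b to 0.19 and Cd27 to 0.12.

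Among the ligands, Tnfsf14, the gene of LIGHT, was the most abundant. It measured 49.8, 43.0 and 42.2 FPKM with anti–VEGF-B and 49.7, 67.0 and 57.0 FPKM with IgG. Anti–VEGF-B replicate 1 was just above IgG replicate 1, so that the groups overlapped although the gene was called. The means were 45.0 ± 4.22 and 57.9 ± 8.69 FPKM (SD, n = 3 each), at a ratio of 0.777, and the log2 difference was -0.35 (standard error 0.114, adjusted p = 0.0470 from limma). Leaving out anti–VEGF-B replicates 2 and 3 in turn gave a limma adjusted p of 0.113 and 0.144, leaving out IgG replicates 2 and 3 gave 0.138 and 0.0882, and the alternatives ran from 0.0221 to 0.281. Tnfsf14 had the larger difference of the called members, and over the 6 libraries the genes with the pattern most like that of Tnfsf14 were Ergic1 (Pearson's r = 0.998), Twistnb (0.998) and Atp6v1g1 (0.997), a description over libraries that share their treatment groups.

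Tnfsf8 encodes the ligand of CD30. It measured 18.2, 15.9 and 20.5 FPKM with anti–VEGF-B and 21.4, 24.3 and 20.9 FPKM with IgG, and the groups were apart by less than 1 FPKM. The log2 difference was -0.28 (standard error 0.106, 95% interval -0.52 to -0.042, adjusted p = 0.0738 from limma). It was -0.195 after quantile normalization, -0.2155 when scaled to Actb and -0.079 after median centring.

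Tnfsf11 encodes RANKL, the ligand that drives osteoclast formation. It measured 14.3, 14.5 and 10.1 FPKM with anti–VEGF-B and 18.5, 15.5 and 16.4 FPKM with IgG, and it was the 1 member whose highest library was not IgG replicate 2 but IgG replicate 1. The groups were apart, with means of 12.96 ± 2.46 and 16.8 ± 1.55 FPKM (SD, n = 3 each). The log2 difference of -0.36 (standard error 0.135, 95% interval -0.67 to -0.059) was not called (limma adjusted p = 0.0705, and between 0.0557 and 0.419 over the alternatives). The gene of its receptor, Tnfrsf11a, was not among the genes listed.

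The scaling between libraries bore on all of these differences. Over all genes the calls were 2099 lower and 429 higher as deposited, 913 and 880 with quantile normalized values, 807 and 1365 with median centred ones, and 1309 and 365 with Actb as the reference. In the same order the median of the members was -0.28, -0.22, -0.082 and -0.22. The called members were then Tnfrsf9 alone after quantile normalization and 0 under the other scalings, where 2172 and 1674 genes were called in all. Tnfrsf18, Cd27 and Tnfrsf1b changed sign under at least 1 scaling, and the other 7 members stayed under 0.

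Some partners of the members had larger differences than the members. Tnfrsf8, the gene of CD30 and partner of Tnfsf8, measured 17.0, 16.5 and 9.87 FPKM with anti–VEGF-B and 27.7, 51.3 and 34.9 FPKM with IgG. It fell (log2 difference -1.33, standard error 0.238, adjusted p = 0.00810 from limma), and the groups were apart. The ratio of Tnfrsf8 to Tnfsf8 within a library was 0.819 ± 0.298 with anti–VEGF-B (SD, n = 3) and 1.69 ± 0.408 with IgG (SD, n = 3), a ratio chosen after the values were seen and not tested. Tnfrsf14, the gene of HVEM and a receptor of LIGHT, fell from 4.33 ± 0.336 to 2.23 ± 0.286 FPKM (log2 difference -0.72, adjusted p = 0.00511 from limma). Both kept their calls in each fit that left out 1 library and under each scaling.

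Of the ligand genes of the costimulatory receptors, Tnfsf4 and Tnfsf9 were measured, each below the gene of its own receptor in level. Tnfsf4, the OX40 ligand gene, fell from 8.78 ± 0.774 to 6.22 ± 0.848 FPKM (log2 difference -0.44, adjusted p = 0.0211 from limma), with an adjusted p of 0.0560 and 0.0804 without anti–VEGF-B replicates 2 and 3 and 0.0523 without IgG replicate 1. Quantile normalization and median centring brought its adjusted p to 0.160 and 0.168. Tnfsf9, the CD137 ligand gene, had 20.2 ± 1.17 and 23.2 ± 2.08 FPKM (log2 difference -0.19, adjusted p = 0.130 from limma). Its difference was -0.095 after quantile normalization, -0.13 when scaled to Actb and 0.010 after median centring. Cd70 and Tnfsf18, the ligand genes for CD27 and GITR, were not among the genes listed.

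Tnf, Lta and Ltb lie side by side on chromosome 17. Tnf measured 16.8, 16.2 and 14.8 FPKM with anti–VEGF-B and 26.4, 32.7 and 26.3 FPKM with IgG and fell (log2 difference -0.79, standard error 0.101, adjusted p = 0.00471 from limma). Lta, which encodes lymphotoxin alpha and binds both TNF receptors as a secreted trimer, fell from 205 ± 30.3 to 145 ± 8.94 FPKM (log2 difference -0.49, adjusted p = 0.0133 from limma). Ltb, the membrane partner of lymphotoxin alpha in the ligand of the lymphotoxin beta receptor, measured 529, 512 and 564 FPKM with anti–VEGF-B and 425, 378 and 415 FPKM with IgG. It rose (log2 difference 0.40, standard error 0.0789, adjusted p = 0.0103 from limma), and its call and direction held under each scaling. Lta and Ltb missed the threshold without anti–VEGF-B replicate 3 (adjusted p of 0.0517 and 0.0506 from limma), and Lta after median centring (0.0597). The ratio of Ltb to Lta within a library was 3.70 ± 0.353 with anti–VEGF-B (SD, n = 3) and 2.02 ± 0.381 with IgG (SD, n = 3). This ratio was chosen after the values were seen and was not tested.

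**Figure D3:**
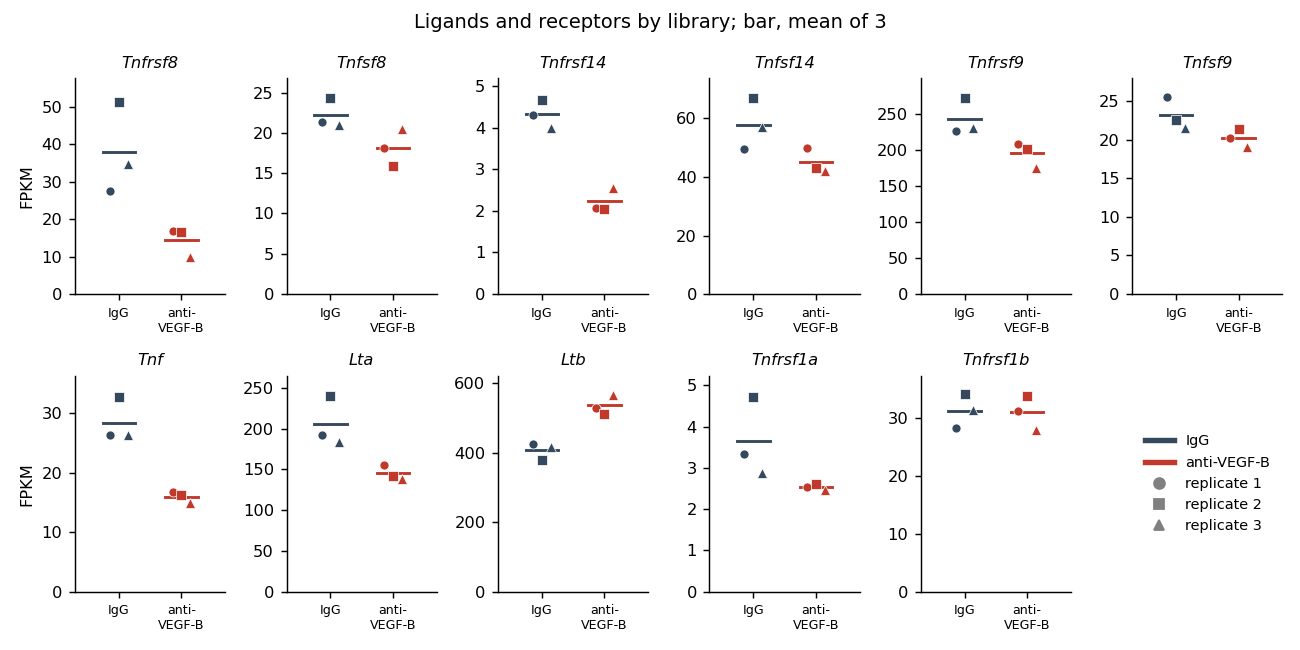
FPKM of ligand and receptor genes by library (axes start at 0), with IgG in dark blue, anti–VEGF-B in red, a marker shape per replicate number and a bar at the mean of 3. Tnfrsf8, Tnfrsf14, Tnf and Lta are lower in each anti–VEGF-B library than in each IgG library, Ltb is higher, and Tnfrsf1b overlaps.

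The loci of several members adjoin those of other superfamily genes (GRCm38, whole genes, as listed with the values). Tnfrsf4 (chromosome 4, 156013843 to 156016612) and Tnfrsf18 (156026164 to 156028895) lie 9.55 kb apart on the plus strand, and neither was called. Tnfrsf9 (chromosome 4, 150914562 to 150946102) and Tnfsf8 (63831308 to 63861347) are on the same chromosome at a distance. Tnfrsf1b (chromosome 4, 145213463 to 145246870) and Tnfrsf8 lie 20.3 kb apart on the minus strand, and the ratio of Tnfrsf1b to Tnfrsf8 was 2.24 ± 0.520 with anti–VEGF-B (SD, n = 3) and 0.860 ± 0.180 with IgG (SD, n = 3). This ratio was not tested. Cd27 (chromosome 6, 125232622 to 125237010) and Tnfrsf1a (125349362 to 125362484) lie 112 kb apart. Tnfsf14 (chromosome 17, 57189492 to 57194189) lies 81.7 kb from Tnfsf9. Fas is on chromosome 19 (34290659 to 34327770) and Tnfsf11 on chromosome 14 (78277445 to 78308043).

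Over the rest of the superfamily, 12 of 21 other receptor genes were listed and 9 passed the filter on low values. Of these, 5 were called lower, 0 higher and 4 not called, where 23.8% of all genes tested were called lower and 4.87% higher. Beside Tnfrsf8 and Tnfrsf14 the receptor genes called were Tnfrsf10b (log2 difference -0.85, adjusted p = 0.00491 from limma), which encodes a TRAIL receptor, Tnfrsf22 (-0.61, 0.00756) and Tnfrsf13b (-0.80, 0.0248). Tnfrsf22 lies beside Tnfrsf23 and Tnfrsf26, genes of similar sequence, and reads may have been shared out among these, which makes its value uncertain. The call of Tnfrsf13b was lost without anti–VEGF-B replicates 2 and 3 (limma adjusted p of 0.0612 and 0.0803) and after quantile normalization (0.0577). Of 15 other ligand genes, 8 were listed and 6 passed the filter, with 3 called lower (Tnf, Lta and Tnfsf4), 1 higher (Ltb) and 2 not called (Tnfsf9 and Cd40lg). Cd40lg was higher in each anti–VEGF-B library than in each IgG library (log2 difference 0.20, adjusted p = 0.125 from limma). It was called higher after quantile normalization (0.43, limma adjusted p = 0.0117) and median centring (0.40, 0.0123), but not when scaled to Actb (0.25, 0.123).

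Downstream of the receptors, 29 genes of the TRAF, ubiquitin and kinase steps were listed and 27 passed the filter. Their median was -0.15, that of all genes tested, with 3 called lower, 2 higher and 22 not called. Over all genes tested, 23.8% were called lower and 4.87% higher. Otulin, which removes linear ubiquitin chains from receptor complexes, rose from 20.4 ± 0.955 to 29.1 ± 2.54 FPKM (log2 difference 0.49, adjusted p = 0.00762 from limma). Tab2, the gene of an adaptor of the kinase TAK1, rose from 35.7 ± 1.09 to 49.5 ± 4.58 FPKM (0.46, adjusted p = 0.00860 from limma). Chuk, the gene of IKK alpha, fell (-0.52, adjusted p = 0.00889 from limma). These 3 calls held under each scaling and in each fit that left out 1 library. Map3k14 (-0.51, adjusted p = 0.0347 from limma) and Tnip2 (-0.52, 0.0468) were lower as well, but each lost its call in 5 of the 6 fits that left out 1 library (adjusted p of 0.0548 to 0.117 for Map3k14 without any library but IgG replicate 1, and of 0.0542 to 0.121 for Tnip2 without any but anti–VEGF-B replicate 2). Map3k14 also lost it after quantile normalization (0.0964) and median centring (0.0865), and Tnip2 under each other scaling (0.0617 to 0.244).

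Of 11 genes of the death-inducing complex, 8 passed the filter, with 1 called lower, 1 higher and 6 not called (median -0.094). Casp8, the initiator caspase of Fas and TNFR1, measured 11.5, 13.2 and 13.8 FPKM with anti–VEGF-B and 15.9, 24.1 and 18.5 FPKM with IgG. It fell (log2 difference -0.55, adjusted p = 0.0214 from limma). Its call was lost without anti–VEGF-B replicate 1 (-0.48, 0.0652) and after median centring (-0.35, 0.0598). Faim, an inhibitor of Fas-mediated death, was higher (0.36, adjusted p = 0.0434 from limma) and lost its call in 5 of the 6 fits that left out 1 library, each but that without anti–VEGF-B replicate 1 (0.0631 to 0.163), and when scaled to Actb (0.0568). Of 5 genes of the shedding of TNF family proteins from the cell surface, 3 were listed and all 3 were called lower. The shares of all genes tested, beside this list and that of the death-inducing complex, were 23.8% called lower and 4.87% higher. Adam10, a membrane protease, fell from 10.2 ± 2.29 to 4.94 ± 0.742 FPKM (-0.90, adjusted p = 0.00748 from limma). Adam17, the protease that releases TNF, had -0.44 (adjusted p = 0.0162 from limma), and Rhbdf2, the gene of its partner iRhom2, had -0.37 (0.0355). Adam17 was not called after quantile normalization (0.0702) or median centring (0.0678). Rhbdf2 was called in no other scaling (0.0742 to 0.195) and in 1 of the 6 fits that left out 1 library, that without anti–VEGF-B replicate 1 (0.0511 to 0.131 in the others).

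**Figure D4:**
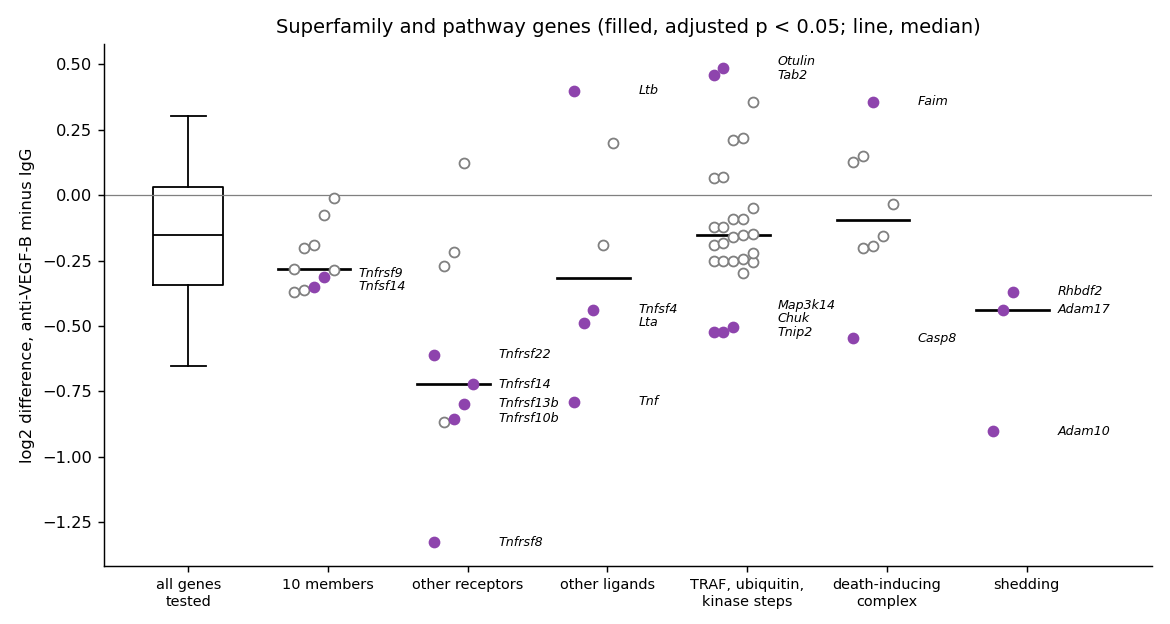
Log2 difference (anti–VEGF-B minus IgG) of each gene that passed the filter, by list, with filled points for an adjusted p under 0.05 and a line at the median of the list. The box holds the quartiles of all 8816 genes with whiskers at the 5th and 95th percentile. The 10 members lie between -0.37 and -0.01, and Tnfrsf8 at -1.33 is the lowest point of these lists.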

How the data were processed

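RNA was measured by RNA-Seq in activated CD4+ T cells, in 3 libraries per treatment, and each column of values was matched to its sample by label. The authors aligned reads of stranded libraries to GRCm38 with hisat2 and quantified genes with StringTie and Ballgown. The deposited values, named as raw data, hold decimals and were taken as FPKM. No step between libraries is stated, and no count model was run. The labels name no batch. They summed to between 260058 and 276622 FPKM per library. Depth cannot be read from FPKM. Low values (under 0.3 FPKM) of any 2 libraries stood in one common ratio for no more than 1.38% of genes, which gave no step worth 1 read, and the counting error is therefore unknown.

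With R 4.3.3 and limma 3.58.1, genes whose mean reached 1 FPKM were fitted as log2(FPKM + 1) (empirical Bayes with trend, all 6 libraries, no covariate). All 10 members passed this filter. The method was tested on simulated data. Alternatives changed the pseudocount, filter, scaling, moderation, replicate block and libraries. Calls under 5 lists were read from the same fit, with no test of a list. Named were the members, their partners, and per list up to 6 called genes with groups that did not overlap, by lowest p. Other genes named were chosen after their values were seen. The members and lists were chosen with earlier results of these data known. One naive T cell marker is not reported here.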

Additional observations from a re-analysis of the deposited data

How the results depend on the processing

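The count of called members was 2 as reported, and 1 with no filter on low values, with a minimum mean of 5 FPKM or after quantile normalization. It was 0 after median centring, when scaled to Actb and with no moderation of the variance, and ran from 0 to 2 in the fits that left out 1 library. The count over all genes was 2528, and 1331 with that minimum of 5 FPKM, 1674 when scaled to Actb, 12 with no moderation of the variance (3208 at an unadjusted p under 0.05) and 859 to 2467 in the fits that left out 1 library, where it was lowest without anti–VEGF-B replicate 3. With no moderation the limma adjusted p of the called superfamily and pathway genes named above ran from 0.0695 to 0.172. Signs reversed for Tnfrsf18 after median centring (0.012), for Cd27 after quantile normalization (0.0091), after median centring (0.12) and without IgG replicate 2 (0.0052, with -0.13 to 0.0052 over the fits that left out 1 library), for Tnfrsf1b after quantile normalization (0.048), after median centring (0.19), when scaled to Actb (0.054), without anti–VEGF-B replicate 3 (0.059) and without IgG replicate 2 (0.053, with -0.081 to 0.059 over the fits that left out 1 library), and for Tnfsf9 after median centring (0.010). The causes were not tested. The difference in the log2 ratio of Tnfrsf1b to Tnfrsf1a stayed between 0.34 and 0.64, and with 1 FPKM added to each gene the groups overlapped (0.36, exact permutation p = 0.2). Depth is unknown, so that only the spread of 3 libraries limits these values.

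Whether libraries that share a replicate number also share a preparation is not stated, and they were not taken as pairs. The correlations of their deviations from the group means were -0.0296, 0.110 and 0.0891 for numbers 1 to 3, and 3 of the 6 libraries correlated best with another number. With a replicate block 1 member (Tnfrsf9) and 2578 genes were called. Of the genes named above, Tnfsf14 (limma adjusted p = 0.0670), Faim (0.0513) and Il7r (0.0589) lost their calls, and Tnfrsf23 (0.0415) gained one. With the block the log2 ratio of Tnfrsf1b to Tnfrsf1a differed by the same 0.48 (p = 0.25, exact test of sign changes within pairs, the smallest that 3 pairs allow).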
